A study of Mus musculus with 2 samples.

Results

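Hox genes encode homeodomain transcription factors that lie side by side in 4 genomic clusters, A to D, and are numbered by position within a cluster from 1 to 13. All rows of the count matrices whose symbol is Hox, a cluster letter and a position were taken, which gave 37 genes of the 27254 genes listed in either batch. Of these, 36 were listed in Batch 1 and 35 in Batch 2, and a gene without a row was counted as 0. Clusters A, B, C and D had 11, 10, 8 and 8 of the rows. Single cells of whole lung from wild-type (wt) C57BL/6J mice at postnatal day 1 (PND1) had been captured by Drop-seq, a droplet method that marks each transcript with a cell barcode and a unique molecular identifier (UMI). Each of the 2 batches was 1 female mouse, both untreated, and no other condition was compared. The batches were therefore the only replicates. With batch fitted as a block, the tests below measure how far class differences varied between 2 mice, pooled over the classes. Each mouse was also its own batch of preparation and sequencing, so mouse and batch cannot be told apart. After cells with over 10% mitochondrial UMIs had been removed, 2388 cells with 4432553 UMIs remained in Batch 1 and 5615 cells with 18232639 UMIs in Batch 2. Of these UMIs, 1591 and 3827 were of Hox genes.

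Hox genes give cells of the embryo their position along the body axis, and genes at the low-numbered end of a cluster are in general active earlier and further forward than those at the high-numbered end. Their proteins bind DNA together with TALE homeodomain cofactors of the Meis, Pbx and Pknox families, Polycomb complexes keep silent Hox genes off, and the trithorax protein Kmt2a keeps active ones on. In the lung, Hox genes are best known from the mesenchyme, and Hoxa5 is needed there for normal airway and alveolar development.

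In the GENCODE annotation of GRCm38, the build of mm10, cluster A lay on chromosome 6, cluster B on chromosome 11, cluster C on chromosome 15 and cluster D on chromosome 2. Hoxa5 spanned chr6:52201754-52204587, Hoxb4 chr11:96318267-96321638, Hoxd8 chr2:74704615-74707933 and Hoxd9 chr2:74697727-74700208, and no exon of these 4 genes overlapped an exon of another gene. Others did share exonic bases. Hoxb2 overlapped Hoxb3os on the opposite strand, Hoxb5 overlapped Hoxb5os, Hoxa7 overlapped Hoxaas3, and Hoxd3 overlapped Hoxd4 on its own strand. Strand use in counting is not given in the sources used here, so reads of such pairs cannot be told apart.

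The DNA just upstream of 4 genes is shown because these genes separated the endothelial classes described below: Hoxa5 and Hoxb4 were the leading Hox genes of vascular endothelium, and Hoxd8 and Hoxd9 those of lymphatic endothelium. Each sequence runs 5′ to 3′ on the gene's strand from base 250 to base 51 before the RefSeq start (GRCm38.p6), a window of 200 bases. Capitals mark matches, on either strand, to the motifs searched. Hoxa5 is on the minus strand at chr6:52204638-52204837, Hoxb4 on the plus strand at chr11:96318017-96318216, Hoxd8 on the plus strand at chr2:74704365-74704564 and Hoxd9 on the plus strand at chr2:74697513-74697712.
Hoxa5: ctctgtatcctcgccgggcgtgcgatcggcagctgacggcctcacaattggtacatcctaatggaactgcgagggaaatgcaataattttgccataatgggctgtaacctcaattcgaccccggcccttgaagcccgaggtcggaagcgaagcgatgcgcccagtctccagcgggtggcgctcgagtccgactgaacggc
Hoxb4: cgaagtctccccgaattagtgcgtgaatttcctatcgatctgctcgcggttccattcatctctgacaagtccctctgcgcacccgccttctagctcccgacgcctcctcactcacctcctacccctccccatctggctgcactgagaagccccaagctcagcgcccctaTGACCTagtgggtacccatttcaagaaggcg
Hoxd8: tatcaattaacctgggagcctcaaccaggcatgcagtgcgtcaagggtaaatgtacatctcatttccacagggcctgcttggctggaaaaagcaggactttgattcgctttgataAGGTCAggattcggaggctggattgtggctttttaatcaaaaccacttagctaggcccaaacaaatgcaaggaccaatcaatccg
Hoxd9: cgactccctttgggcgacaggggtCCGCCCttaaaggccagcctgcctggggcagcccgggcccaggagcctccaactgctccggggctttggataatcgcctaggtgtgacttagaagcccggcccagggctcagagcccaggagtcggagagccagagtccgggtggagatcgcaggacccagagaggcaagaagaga

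Motifs searched were the core of the promoter box that positions RNA polymerase, TATAAA, and the box bound by Sp proteins, GGGCGG. Further motifs were a site shared by Hox and Pbx proteins, TGATNNAT, a short nuclear receptor site, AGGTCA, and the homeodomain core TAATTA. No matches overlapped in the 4 windows. Hoxa5 held none of them, Hoxb4 held AGGTCA on the opposite strand as TGACCT, Hoxd8 held AGGTCA, and Hoxd9 held GGGCGG on the opposite strand as CCGCCC. RefSeq promoters were matched for 21 of the 37 genes, with 23 windows in all. AGGTCA was in 5 of the 23 Hox windows (21.7%) and in 11.4% of all 32851 windows of the same length. GGGCGG was in 9 Hox windows (39.1%), beside 24.6% of all windows. TATAAA was in 13.04% and 9.14%, TGATNNAT in 13.04% and 6.44%, and TAATTA in 8.70% and 4.19%. Hox windows held a median of 11 CpG, against 4 in all windows, and the Hoxa5 window held 19, Hoxb4 12, Hoxd8 4 and Hoxd9 10. Such matches describe the letters of a window and are no evidence that a factor binds there.

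Cells were clustered without the Hox genes, their cofactors and the noncoding RNAs of the Hox clusters, and clusters were named from marker genes. There were 1175 and 1960 mesenchymal cells in Batch 1 and Batch 2, 519 and 1411 vascular endothelial, 21 and 28 lymphatic endothelial, 324 and 1446 epithelial and 166 and 483 immune cells. The marker levels were in keeping with these names, which rest on them: Cdh5 was at 8.96 and 7.83 UMIs per 10000 UMIs in vascular cells, Prox1, the lymphatic regulator, at 6.02 and 5.63 in lymphatic cells, Epcam at 2.35 and 3.23 in epithelial cells and Ptprc at 3.71 and 3.73 in immune cells. The 319 cells left in unnamed clusters are given apart. Several clusters held cells of nearly 1 batch alone, so that classes, but not clusters, were compared across batches. No cell barcode was shared between the batches.

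Mesenchymal and vascular endothelial cells carried most Hox UMIs, at like levels. All Hox genes together reached 5.21 UMIs per 10000 (95% Poisson interval 4.87 to 5.57, 871 UMIs) in mesenchymal cells of Batch 1 and 4.10 (3.90 to 4.31, 1493 UMIs) in Batch 2. In vascular cells the level was 4.99 (4.54 to 5.46, 459 UMIs) and 4.48 (4.28 to 4.69, 1818 UMIs). In lymphatic cells it was 4.06 (2.72 to 5.83, 29 UMIs) and 2.53 (1.72 to 3.59, 31 UMIs). The order of mesenchymal and vascular cells turned between the batches, and the lymphatic interval of Batch 1 included both their levels while that of Batch 2 lay below them. Epithelial and immune cells were lower in both batches. Epithelial cells held 0.540 (0.398 to 0.716, 48 UMIs) and 0.0895 (0.0700 to 0.113, 72 UMIs), and immune cells 0.776 (0.492 to 1.16, 23 UMIs) and 0.347 (0.247 to 0.475, 39 UMIs). All intervals cover counting error only, not the difference between mice.

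At least 1 UMI of all Hox genes together was found in 48.0% and 47.7% of mesenchymal cells (median 1259 and 1668 UMIs per cell), 45.9% and 54.8% of vascular cells (1226 and 1822), 57.1% and 53.6% of lymphatic cells (2750 and 3915.5), 10.5% and 4.29% of epithelial cells (2139 and 3530) and 11.4% and 6.42% of immune cells (1398.5 and 1828). With every cell thinned to 1000 UMIs, and 1107 shallower cells left out, the shares were 39.1% and 33.4% in mesenchymal, 37.6% and 34.0% in vascular, 44.4% and 26.9% in lymphatic, 5.33% and 0.866% in epithelial and 10.8% and 2.52% in immune cells. Epithelial cells were the deepest of the 4 larger classes and yet had the lowest shares.

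The classes differed in which cluster they used. In mesenchymal cells, cluster B gave 58.6% and 53.7% of the Hox UMIs and cluster A 39.0% and 45.3%. In vascular cells the weight lay on cluster A, with 72.8% and 71.6%, and cluster B gave 25.7% and 27.8%. Per 10000 UMIs, cluster A stood at 2.04 and 1.86 in mesenchymal and at 3.63 and 3.21 in vascular cells, while cluster B stood at 3.05 and 2.203 in mesenchymal and at 1.28 and 1.24 in vascular cells. In lymphatic cells, cluster D gave 75.9% and 58.1% of the Hox UMIs (22 of 29 and 18 of 31). Cluster D in the vascular cells came to 5 UMIs in each batch, among 459 and 1818 Hox UMIs. Cluster C was close to empty in all 5 classes, with at most 14 UMIs, which were counted in mesenchymal cells of Batch 1. The UMIs mark transcript ends and were not divided by gene length, so these are shares of UMIs counted.

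The classes also differed in position. Positions 4 to 8 gave 70.3% and 78.2% of the mesenchymal Hox UMIs, 86.9% and 89.0% of the vascular ones and 51.7% and 58.1% of the lymphatic ones. Positions 1 to 3 were at 1.45 and 0.865 UMIs per 10000 in mesenchymal cells and at 0.554 and 0.471 in vascular cells. Positions 9 to 13 were rare in both, with 17 and 10 UMIs in mesenchymal cells and 9 and 9 in vascular cells, or 1.95% and 0.670%, and 1.96% and 0.495%, of their Hox UMIs. In lymphatic cells these last positions made up 31.0% and 29.0%, again 9 UMIs in each batch but from 21 and 28 cells.

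Of the 37 genes, 12 had at least 10 UMIs in 1 class in both batches: Hoxa2, Hoxa3, Hoxa4, Hoxa5 and Hoxa7 of cluster A and Hoxb2 to Hoxb8 of cluster B. They held 1334 and 3348 of the Hox UMIs of the 5 classes. The other 25 genes, 6 of cluster A, 3 of cluster B and all of clusters C and D, held 96 and 105, with a median of 3 and 4 UMIs a gene and at most 10 (Hoxa6, Batch 1) and 12 (Hoxd3, Batch 2). At these counts the genes below the rule were not compared between classes one by one, other than those of the lymphatic cells.

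**Figure D1:**
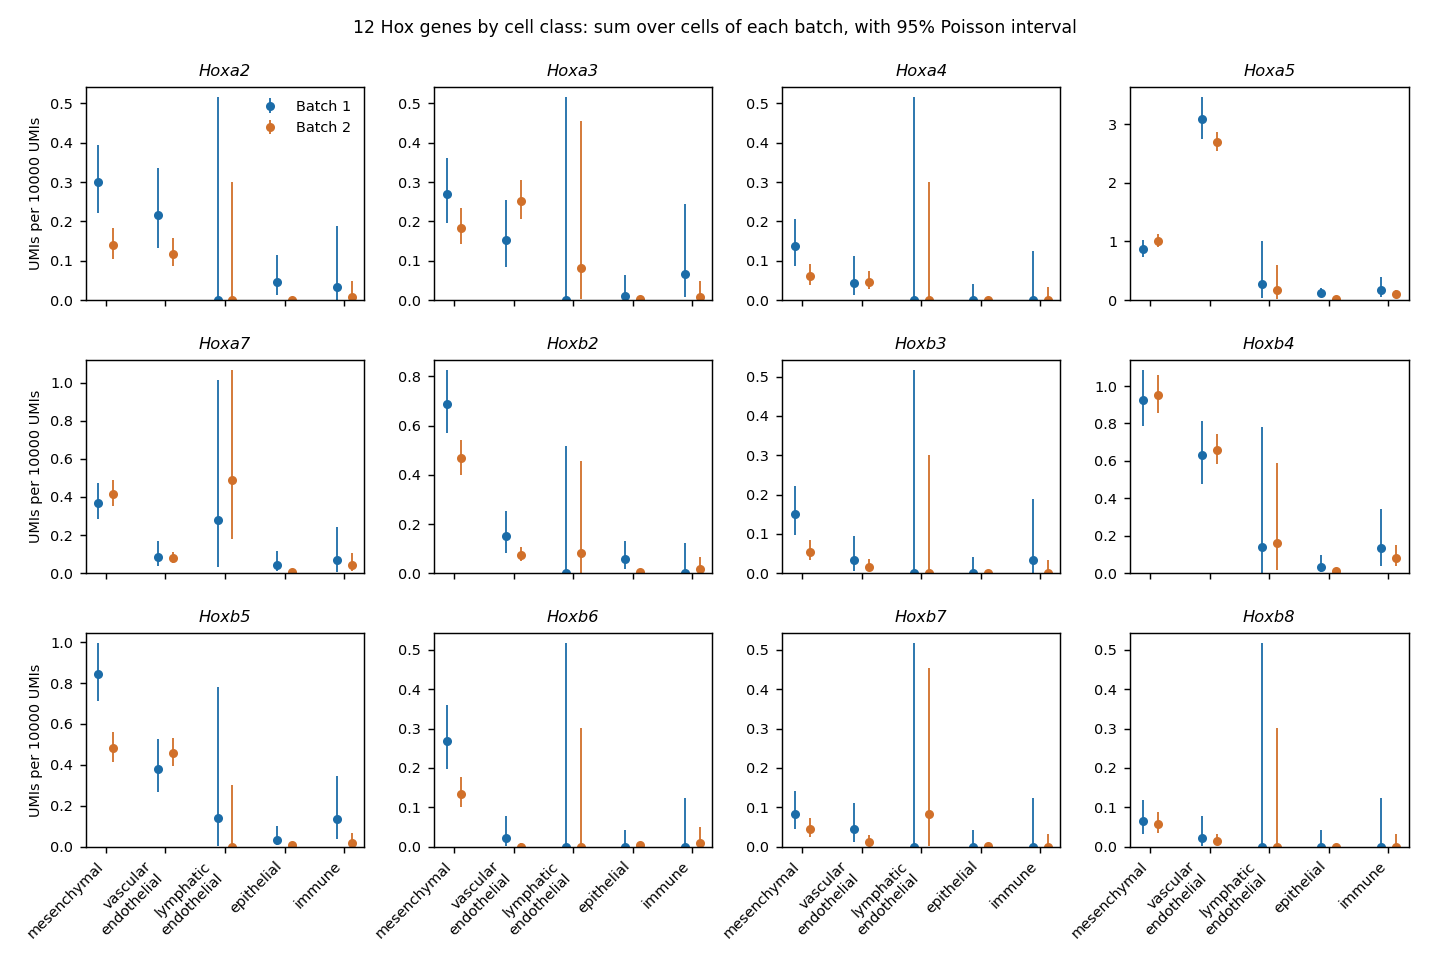
Level of the 12 Hox genes with at least 10 UMIs in 1 class in both batches, in UMIs per 10000 UMIs, by class, with 1 point per batch and 95% Poisson intervals for counting error. Hoxa5 was highest in vascular cells, Hoxb2 and Hoxb6 in mesenchymal cells, and Hoxb4 was at 0.928 and 0.953 in mesenchymal and 0.630 and 0.660 in vascular cells.

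Mesenchymal cells were compared with epithelial and immune cells to ask which Hox genes belong to the connective tissue. After a filter on low counts, 11 Hox genes were tested. Hoxb6 passed it only through its mesenchymal sums, Hoxa7 only through mesenchymal and lymphatic sums, and Hoxa2, Hoxa3 and Hoxb2 only through mesenchymal and vascular sums. Hoxd3, Hoxd8 and Hoxd9 passed only through their lymphatic sums. A gene that passed only through the classes where it was high was bound to differ from the others. The counts below are therefore no account of all 37 genes and no support for a direction. Of the 11, 8 were higher in mesenchymal than in epithelial cells (edgeR quasi-likelihood test, adjusted p under 0.05), where 33.4% of all 11583 genes tested were called and 15.5% were higher. The same number, 8, was higher than in immune cells, where 33% of all genes were called and 16.9% were higher. The median difference of the 11 Hox genes was 4.94 (log2) over epithelial and 3.08 over immune cells, beside 0.00 and 0.07 for all genes tested.

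Hoxb4, a gene of the middle of cluster B, had 155 and 347 UMIs in mesenchymal cells, or 0.928 and 0.953 per 10000. It was higher than in epithelial cells by 5.46 ± 0.39 (log2 ± SE, edgeR adjusted p = 2.31e-08) and than in immune cells by 3.13 ± 0.40 (edgeR adjusted p = 1.24e-05). Hoxa5 had 145 and 368 UMIs (0.868 and 1.01 per 10000) in mesenchymal cells, 10 and 11 (0.113 and 0.0137) in epithelial cells and 5 and 11 (0.169 and 0.0980) in immune cells. Its differences were 4.70 ± 0.52 (edgeR adjusted p = 1.93e-06) and 2.79 ± 0.52 (edgeR adjusted p = 0.000559).

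The remaining 6 genes called in both comparisons were Hoxa2, Hoxa3, Hoxa7, Hoxb2, Hoxb5 and Hoxb6. All of these but Hoxb5 had passed the filter through no epithelial or immune sum, so their calls carry no weight as tests. Hoxb2 had 115 and 170 mesenchymal UMIs against 5 and 4 epithelial and 0 and 2 immune ones. Hoxb5 had 141 and 176 against 3 and 6, and 4 and 2. Hoxb6 had 45 and 49 against 0 and 3, and 0 and 1. Hoxa2, at the low-numbered end of cluster A, had 50 and 51 UMIs in mesenchymal cells against 4 and 0 in epithelial cells. In Batch 1 the epithelial level was 15.0% of the mesenchymal one (counting interval 3.95 to 41.0). In Batch 2 the mesenchymal level was at least 37.6-fold higher, taking 3 counts as the floor of a library. Differences from epithelial cells ranged from 4.51 ± 0.83 (Hoxa2, edgeR adjusted p = 0.000487) to 5.51 ± 0.75 (Hoxa3, 2.03e-05) among these 6. Hoxa2 was the least certain of the 8 against immune cells, with edgeR adjusted p = 0.0225. Hoxa2 lost that call without the batch block (edgeR adjusted p = 0.0988) and under DESeq2 (adjusted p = 0.0895), with adjusted p from 0.000924 to 0.0988 over 7 alternatives.

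In vascular endothelium, Hoxa5 was the main Hox gene: it alone gave 61.9% and 60.2% of the Hox UMIs of these cells, against 16.6% and 24.6% in mesenchymal cells. It had 284 UMIs (3.08 per 10000, 2.74 to 3.46) in Batch 1 and 1094 (2.70, 2.54 to 2.86) in Batch 2. Of the 11 Hox genes tested, 7 were higher in vascular than in epithelial cells, where 35.9% of all genes were called and 16.5% were higher, and 5 were higher than in immune cells, where 28.9% were called and 14% were higher. Because of the filter, these counts too are no support for a direction. Hoxa5 differed from epithelial cells by 6.28 ± 0.52 (edgeR adjusted p = 9.06e-08) and from immune cells by 4.37 ± 0.51 (4.84e-06). Hoxb4, with 58 and 268 vascular UMIs (0.630 and 0.660 per 10000), differed by 4.92 ± 0.40 (7.68e-08) and 2.58 ± 0.41 (0.000116).

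Hoxa3, also of cluster A, had 14 and 102 UMIs in vascular cells and Hoxb5 35 and 186, and both were higher than in epithelial and in immune cells. Hoxa2, Hoxa3 and Hoxb2 had passed the filter through mesenchymal and vascular sums alone, so their calls here carry no weight as tests. Hoxa2 was also called against both classes, with 20 and 48 vascular UMIs, but its call against immune cells (3.04 ± 1.09, edgeR adjusted p = 0.0486) was held in 3 of 8 alternative settings. Hoxa7 and Hoxb2 were higher than in epithelial cells by 2.68 ± 0.69 (edgeR adjusted p = 0.00529) and 2.65 ± 0.65 (0.00402), calls that DESeq2 did not make (adjusted p = 0.0589 and 0.105). Their differences from immune cells were 0.50 ± 0.75 (edgeR adjusted p = 0.677) and 2.49 ± 1.00 (0.0748).

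Set against each other, mesenchymal and vascular cells differed in 4 of the 11 Hox genes, where 26.6% of all genes were called, 13.5% higher in mesenchymal and 13.1% higher in vascular cells. The 4 genes went in different directions. Hoxa5 was lower in mesenchymal cells by 1.58 on the log2 scale (-1.58 ± 0.35, edgeR adjusted p = 0.00243), and in single batches the difference was -1.74 and -1.45. Hoxa5 lost this call without the batch block (-1.60, adjusted p = 0.0673) and under DESeq2 (-1.48, adjusted p = 0.134), with adjusted p from 1.19e-06 to 0.134 over 8 alternatives and the same direction in all 8.

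Hoxb2 was higher in mesenchymal cells, in each of the 8 alternatives too. Hoxa7 and Hoxb6 were the remaining called genes, and Hoxa7 was also called in each of the 8 alternatives. Hoxa7, of the middle of cluster A, had 62 and 152 UMIs (0.371 and 0.418 per 10000) in mesenchymal cells against 8 and 32 (0.0869 and 0.0789) in vascular cells, a difference of 2.25 ± 0.46 (edgeR adjusted p = 0.00115). Hoxa7 had passed the filter through mesenchymal and lymphatic sums and no vascular sum, so its call between these classes is given no weight. By level in both batches, genes of the same cluster went opposite ways, Hoxa5 being higher in vascular and Hoxa7 in mesenchymal cells. Hoxb2 had 0.688 and 0.467 per 10000 in mesenchymal cells against 0.152 and 0.0764, a difference of 2.42 ± 0.43 (edgeR adjusted p = 0.000371). Hoxb6 had 45 and 49 UMIs in mesenchymal cells against 2 and 0 in vascular cells. That was 12.4-fold higher in Batch 1 (counting interval 3.24 to 105.5) and at least 18.2-fold higher in Batch 2. Since Hoxb6 had passed the filter through its mesenchymal sums alone, its call is given no weight and these values are a description.

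Hoxa2, Hoxa3, Hoxb4 and Hoxb5 were not called between the 2 classes. Their differences were 0.32 ± 0.55 (Hoxa2, edgeR adjusted p = 0.738), 0.03 ± 0.46 (Hoxa3, 0.974), 0.55 ± 0.26 (Hoxb4, 0.144) and 0.50 ± 0.37 (Hoxb5, 0.365), which does not show that the levels were equal. Of the named genes below the filter, Hoxa4 had 23 and 22 UMIs in mesenchymal against 4 and 19 in vascular cells, Hoxb3 25 and 20 against 3 and 7, Hoxb7 14 and 16 against 4 and 5, and Hoxb8 11 and 21 against 2 and 6. Per 10000 UMIs, all 4 of these were higher in mesenchymal cells in both batches. Counting intervals of the vascular level, as a percent of the mesenchymal one, included equal levels for some. These were Hoxa4 in Batch 2 (39.7 to 150) and, in Batch 1, Hoxb7 (12.4 to 165.1) and Hoxb8 (3.55 to 151.2).

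Lymphatic endothelial cells were few, 21 and 28, and expressed a different set of Hox genes from vascular endothelium. Of the 11 Hox genes tested, 5 were called between lymphatic and vascular cells, where 9.41% of all genes were called, 3.36% higher and 6.05% lower in lymphatic cells. Hoxd3, Hoxd8 and Hoxd9 were higher in lymphatic cells and Hoxa5 and Hoxb4 lower. Hoxd3, Hoxd8 and Hoxd9 had passed the filter through the lymphatic sums alone, so that 3 of the 5 calls were bound to the choice of genes, and they carry no weight as tests. These 3 genes and Hoxd10 fell below the rule for named genes and were chosen after their values had been seen, and their values are a description.

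Hoxd8 had 9 UMIs in lymphatic cells of Batch 1 (1.26 per 10000, 0.576 to 2.39) and 7 in Batch 2 (0.571, 0.230 to 1.18), against 0 and 1 in vascular cells and 0 and 0 in mesenchymal cells. It was at least 38.7-fold higher than in vascular cells in Batch 1, and DESeq2 did not call it. Hoxd9 had 5 and 7 UMIs against 0 and 0 in vascular cells, at least 21.5-fold and 77.3-fold higher, and 1 and 1 in mesenchymal cells. Hoxd3 had 5 and 2 against 0 and 2, at least 21.5-fold higher in Batch 1 and 33.1-fold (counting interval 2.40 to 456.8) in Batch 2. Hoxd10 had 3 and 2 against 1 and 0 and was too rare to be tested.

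The cluster D transcripts were spread over cells. A UMI of Hoxd3, Hoxd8, Hoxd9 or Hoxd10 was found in 9 of 21 (42.9%) and 8 of 28 (28.6%) lymphatic cells, and UMIs of at least 2 of these genes in 3 and 2 cells. Prox1 was detected in 12 and 16 lymphatic cells. Lymphatic cells held 22 and 18 UMIs of the 4 genes, against 8 and 19 in all other kept cells together, and 14 and 14 of Hoxd8 and Hoxd9, against 3 and 5.

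Hoxa5, the main vascular Hox gene, had only 2 and 2 UMIs in lymphatic cells (0.280 and 0.163 per 10000) and was lower than in vascular cells by 4.08 on the log2 scale (-4.08 ± 0.69, edgeR adjusted p = 0.00108), in both batches (-3.67 and -4.29) and in 8 of 8 alternatives. Hoxb4 had 1 and 2 UMIs and was lower (-2.38 ± 0.64, edgeR adjusted p = 0.0277), a call held in 5 of 8 alternatives (adjusted p from 0.0299 to 0.119). Hoxa7 had 2 and 6 UMIs, or 0.280 and 0.490 per 10000, beside 0.0869 and 0.0789 in vascular cells (1.98 ± 0.81, edgeR adjusted p = 0.146). Hoxb5 had 1 and 0 (edgeR adjusted p = 0.0871). Relative log expression scaling in place of TMM moved the median difference of all genes in this comparison from -0.48 to -0.28. In epithelial cells, cluster D had 4 and 13 UMIs, 0.0450 and 0.0162 per 10000, and in immune cells 0 and 2.

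**Figure D2:**
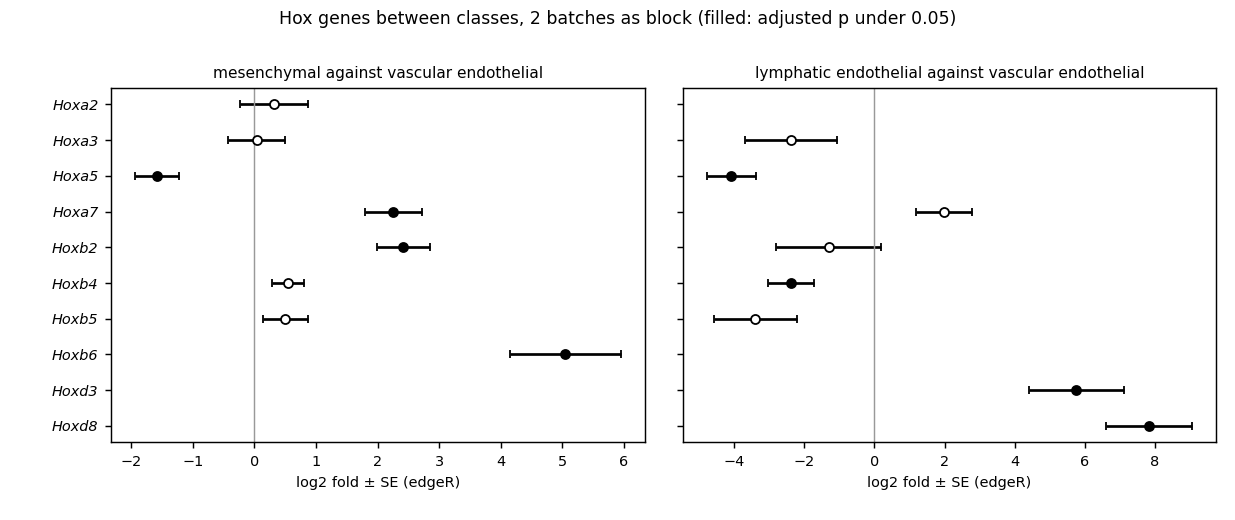
Log2 fold change (edgeR, points with SE bars) of Hox genes in mesenchymal against vascular endothelial cells (left) and in lymphatic against vascular endothelial cells (right). Filled points mark adjusted p under 0.05, a call that carries no weight for Hoxa7, Hoxb6, Hoxd3 and Hoxd8. Hoxa2 and Hoxb6 are not drawn on the right, Hoxd3 and Hoxd8 not on the left, and Hoxd9 on neither side. On the left Hoxa5 lay at -1.58 while Hoxa7, Hoxb2 and Hoxb6 lay above 2, and on the right Hoxd3 and Hoxd8 lay above 5 while Hoxa5 lay at -4.08.

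Epithelial and immune cells had few Hox UMIs, and those they had are set here beside transcripts that are markers of other cells. As a share of the mesenchymal level, all Hox genes together stood at 10.4% (7.58 to 13.9) and 2.18% (1.70 to 2.76) in epithelial cells, and 10 mesenchymal genes (Col1a1, Col1a2, Col3a1, Dcn, Fn1, Inmt, Mfap4, Mgp, Sparcl1, Tcf21) at 2.14% and 0.667%. In immune cells all Hox genes stood at 14.9% (9.38 to 22.5) and 8.47% (6.00 to 11.6) and the 10 genes at 7.65% and 4.11%, of which Fn1, which macrophages also make, stood at 33.8% and 50.95%. Sparcl1 was not particular to mesenchyme, since in vascular cells it stood at 114.4% and 66.1% of its mesenchymal level, and it stood at 7.08% and 0.761% in epithelial and 13.5% and 2.64% in immune cells. The summed level of 17 vascular markers in epithelial cells was 4.09% and 0.843% of that in vascular cells, and 2.15% and 2.31% in immune cells. In Batch 1, Hba-a1, the haemoglobin gene of red cells, stood at 138.5 UMIs per 10000 in epithelial and 155.3 in immune cells, and in Batch 2 at 10.7 and 17.5. In epithelial cells the Hox level and these 3 kinds of transcript were all lower in Batch 2 than in Batch 1. In immune cells the Hox level, the summed mesenchymal genes and Hba-a1 were lower in Batch 2, but the vascular markers were not. The part of free RNA in the epithelial and immune Hox UMIs was not tested.

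Few genes stood out among these counts. In epithelial cells, Hoxa5 had 10 and 11 UMIs, 12.97% and 1.35% of its mesenchymal level, and was the only gene with 10 UMIs in both batches. Hoxb9, chosen here after its values had been seen, had 6 and 5 epithelial UMIs (0.0675 and 0.00621 per 10000) against 1 and 1 in mesenchymal and 0 and 0 in vascular cells. Positions 9 to 13 together had 13 and 15 UMIs in epithelial cells, or 27.1% and 20.8% of their Hox UMIs, against 1.95% and 0.670% in mesenchymal cells. In immune cells, Hoxa5 had 5 and 11 UMIs, and no gene had 10 in both batches.

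**Figure D3:**
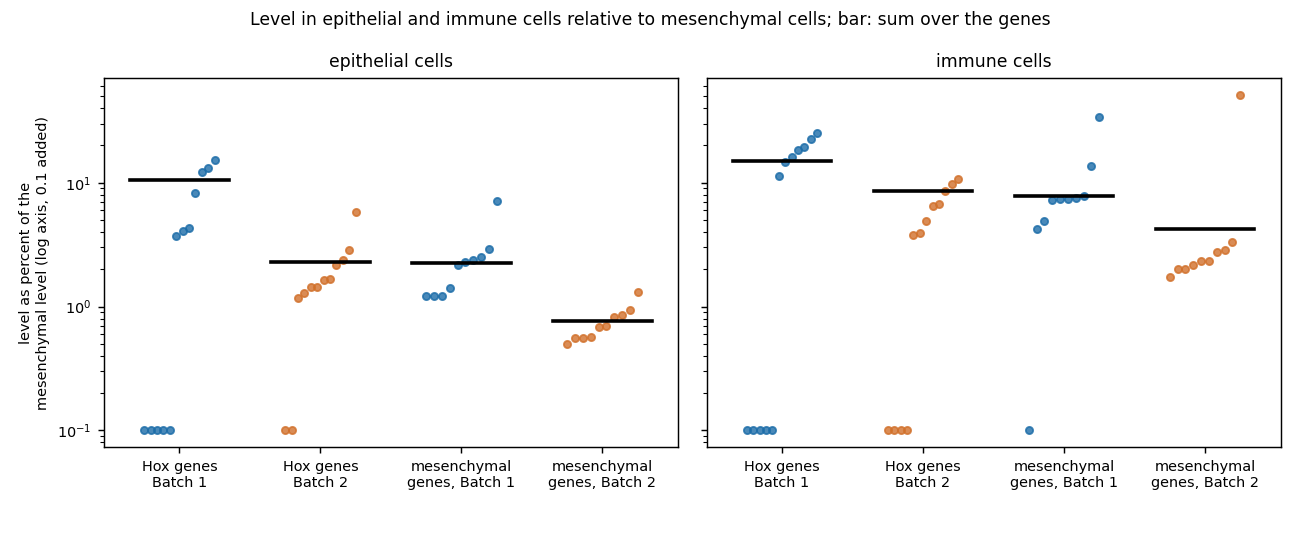
Level in epithelial and immune cells as a percent of the mesenchymal level, for Hox genes and for 10 mesenchymal genes, by batch, on a log axis with 0.1 added to each value; each point is a gene and horizontal bars give the summed level of each set. The summed Hox levels, 10.4% and 2.18% in epithelial and 14.9% and 8.47% in immune cells, lay above the summed levels of the 10 mesenchymal genes in both batches.

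Within the mesenchyme, fibroblasts (936 and 1295 cells), pericytes (63 and 156) and myofibroblasts or smooth muscle cells (176 and 509) all used clusters A and B. All Hox genes together stood at 4.66 and 3.57 UMIs per 10000 in fibroblasts, 7.64 (5.78 to 9.89) and 6.29 (5.43 to 7.25) in pericytes and 7.76 (6.65 to 9.0) and 4.84 (4.38 to 5.32) in myofibroblasts or smooth muscle. Fibroblasts were the lowest of the 3 in both batches. Cluster B gave 53.1% and 49.8% of the Hox UMIs of fibroblasts, 70.2% and 63.0% of those of pericytes and 74.9% and 57.8% of those of myofibroblasts or smooth muscle.

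Of 10 Hox genes tested, 1, Hoxb2, was called between fibroblasts and the mean of the other 2 subclasses, where 10.9% of all genes were called, 6.95% higher and 3.94% lower in fibroblasts. Hoxb2 had 0.482 and 0.316 UMIs per 10000 in fibroblasts, 1.21 and 1.38 in pericytes and 1.77 and 0.577 in myofibroblasts or smooth muscle, and was lower in fibroblasts by 1.37 on the log2 scale (-1.37 ± 0.36, edgeR adjusted p = 0.0111). In single batches the difference was -1.23 and -1.24, but the call was lost without the batch block (adjusted p = 0.206) and under DESeq2 (0.0996), in a range of 0.00538 to 0.206 over 7 alternatives.

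Hoxd8 and Hoxd9 were among the 10 through lymphatic sums alone, with 0 and 0, and 1 and 1, mesenchymal UMIs, so neither could be called between subclasses. Pericytes were called in 0 of 10 Hox genes, with 3 at an unadjusted p under 0.05 by edgeR, where 7.32% of all genes were called (4.29% higher, 3.02% lower), and DESeq2 also called 0. Those 3 were Hoxa2 (1.61 ± 0.62, edgeR adjusted p = 0.132), Hoxb2 (1.08 ± 0.40, 0.114) and Hoxb4 (0.71 ± 0.30, 0.191). Myofibroblasts or smooth muscle were called in 0 of 10, with 1 at an unadjusted p under 0.05 by edgeR, where 6% of all genes were called (3.9% higher, 2.1% lower), and DESeq2 called 0. That gene was Hoxb6, at 0.887 and 0.254 UMIs per 10000 in myofibroblasts or smooth muscle, 0.182 and 0.0891 in fibroblasts and 0 and 5 UMIs in pericytes (1.65 ± 0.64, edgeR adjusted p = 0.161). The 21 and 11 mesothelial cells, the cells that line the lung surface, had 12 and 11 Hox UMIs, 2.71 and 2.65 per 10000.

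Hoxa5 was not level across the clusters of vascular cells. In the clusters with at least 20 cells in a batch it lay between 1.37 and 3.66 UMIs per 10000 in all but 1. The exception was the cluster led by Car4, Ednrb and Tbx3 (44 and 155 cells), which had 1 UMI of Hoxa5 in Batch 1 (0.195, 0.00494 to 1.09) and 25 in Batch 2 (1.14, 0.736 to 1.68). All Hox genes together in that cluster came to 1.56 and 3.00 per 10000, against 4.99 and 4.48 in all vascular cells. A cluster led by Cxcl12, Tm4sf1 and Bmx had Hoxa5 at 2.23 and 3.04. These clusters were singled out after their values had been seen, and no test was made between clusters.

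**Figure D4:**
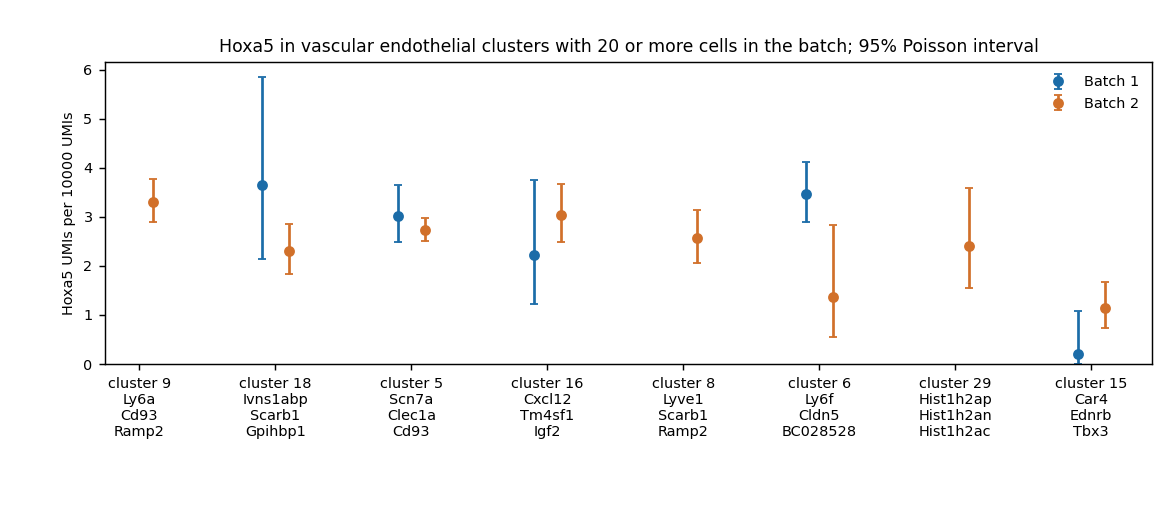
Hoxa5 level in UMIs per 10000 UMIs in each cluster of vascular endothelial cells with at least 20 cells in the batch, by batch, with 95% Poisson intervals. The cluster led by Car4 had the lowest level in both batches, 0.195 and 1.14.

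The TALE cofactors of Hox proteins were compared between the same classes, and the counts called are not read as particular to the list. Of 9 TALE genes, 8 were tested. In mesenchymal cells 5 were higher and 2 lower than in epithelial cells, with Meis1 (3.91) and Meis2 (3.91) higher and Pbx4 (-5.16) and Pbx2 (-1.16) lower by the largest log2 differences, and 4 were higher and 0 lower than in immune cells, where 33.4% and 33% of all genes were called. In vascular cells 3 were higher and 2 lower than in epithelial cells, led by Meis2 (5.51) and Meis1 (3.07), and 2 were higher and 0 lower than in immune cells, where 35.9% and 28.9% of all genes were called. Between mesenchymal and vascular cells, where 26.6% of all genes were called, Meis3 (4.80) was higher in mesenchymal and Meis2 (-1.60) higher in vascular cells. Meis2 stood at 0.748 and 0.928 UMIs per 10000 in mesenchymal cells and at 2.02 and 2.99 in vascular cells, the same direction as Hoxa5. Meis3 had 45 and 94 UMIs in mesenchymal cells and 1 and 3 in vascular cells.

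In lymphatic cells, 0 TALE genes were higher and 1 was lower than in vascular cells, where 9.41% of all genes were called and 6.05% were lower. It was Meis1, with 0 UMIs in both batches against 39 and 231 in vascular cells (0.424 and 0.569 per 10000), and was at least 1.01-fold and 2.33-fold lower. Meis2 stood at 2.94 and 0.979 in lymphatic cells. Within the mesenchyme, fibroblasts were higher in Meis2 (1.48), pericytes in Pbx2 (1.54), and myofibroblasts or smooth muscle lower in Pbx2 (-1.50).

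Of 13 noncoding RNAs of the Hox clusters, 2 were tested. 0610040B09Rik, the name in the files for Hoxb5os, which lies opposite to Hoxb5, was higher in mesenchymal than in epithelial (6.14), immune (4.19) and vascular cells (3.45), and in Batch 2 it had 49 UMIs in mesenchymal and 0 in epithelial cells. Hoxb3os, opposite to Hoxb2 and Hoxb3, was higher than in epithelial and immune cells both in mesenchymal (4.62 and 3.07) and in vascular cells (3.77 and 2.21). In pericytes it was higher than in the other 2 mesenchymal subclasses (1.47, edgeR adjusted p = 0.0186).

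Of 19 genes of the chromatin machinery that keeps Hox clusters on or off, 17 were tested between classes. In mesenchymal cells 3 were higher and 1 lower than in epithelial cells (Ezh2 1.72, Rnf2 1.44, Cbx7 -1.43), and 4 were higher than in immune cells, led by Pcgf2 (3.64) and Rnf2 (1.76), beside 33.4% and 33% of all genes called. Ezh2 is the methyltransferase of Polycomb complex PRC2, and Rnf2, Cbx7 and Pcgf2 are parts of PRC1. In vascular cells 2 were higher and 4 lower than in epithelial cells, and 5 higher and 2 lower than in immune cells, where 35.9% and 28.9% of all genes were called, and these counts are not read as particular to the list. Mesenchymal cells were higher than vascular cells in 3, led by Cbx7 (2.09) and Ezh2 (1.31), and lower in 1, Kdm6a (-0.85), where 26.6% of all genes were called. Lymphatic cells were lower than vascular cells in 3 and higher in 0, among them Pcgf2, with 0 UMIs in lymphatic cells of both batches, and Eed (-3.03), where 9.41% of all genes were called. Taking 3 counts as the floor, Pcgf2 was at least 1.45-fold lower in Batch 1, but the bound of Batch 2 was 0.997-fold. Eed had 0 lymphatic UMIs in Batch 1, with a bound of 0.672-fold. Bounds under 1 do not show a lower level in that batch. Fibroblasts were higher than the other mesenchymal subclasses in Ezh2 (1.52) and Rnf2 (0.99).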

How the data were processed

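For each batch the authors deposited raw UMI counts per gene and cell as whole numbers, without normalization. Reads had been aligned to mm10 with Bowtie2 2.2.7, per the submitters' processing notes, and UMIs per gene had been counted over exons with Drop-seq tools; the annotation and strand use are not given in the sources used here. Work was done in Python 3.11.15 with scanpy 1.11.5, leidenalg 0.10.2 and scipy 1.17.1 with DESeq2 1.42.0 and edgeR 4.0.16 run in R 4.3.3.

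Cells with over 10% mitochondrial UMIs were removed (1 of 2389 in Batch 1 and 1940 of 7555 in Batch 2). The remaining 8003 cells were clustered together (2850 variable genes scaled within each batch, 30 components, 15 neighbours, Leiden resolution 2) without the Hox genes, TALE cofactors and Hox cluster RNAs. A cluster was named where at least 3 markers of a class were among its top 50 genes by fold, at least 3 times as many as of any other class, with markers of its own class leading its top 10. These naming settings were chosen after the clusters had been seen. Of 1998 Batch 1 cells listed in the study's shortened table, 1824 were in 1 of the 5 classes both there and here, and 1805 of these were in the same class. Listed cells outside the 5 classes on either side, such as those left unnamed here, were not counted in that comparison. Scrublet marked 13 (0.544%) and 118 (2.10%) cells as doublets, which were kept and left out as an alternative. Unnamed and erythroid cells entered no class test. Mesothelial cells were in no comparison, but their sums were a further class of the second model below and so entered its filter and its estimate of spread.

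UMIs were summed by class and batch (71397 to 8046909 UMIs, median 1021652) and fitted in 1 edgeR quasi-likelihood model with TMM scaling and batch as a block (11583 genes after filterByExpr, with a cutoff of 10 UMIs at the median sum, 4 residual degrees of freedom), and in a second model with mesenchymal subclasses (10947 genes, 7 degrees of freedom). P-values were adjusted by Benjamini-Hochberg over all genes tested, with a threshold of 0.05. A batch is 1 mouse, from the study's methods, so sums of the same batch are paired: their deviations from the class means correlated with a median of 0.254 (0.060 to 0.433, 10 pairs) in the first and 0.126 (from 0.026, 28 pairs) in the second model. Levels are UMIs of a gene over all UMIs of the class, with exact 95% Poisson intervals; shares of cells were also taken after thinning each cell to 1000 UMIs. A fold over a class with no UMI used a floor of 3 counts per library. The fit was tested on simulated counts. Alternatives were no block, DESeq2, relative log expression scaling, no gene filter, a 5% mitochondrial limit, clustering by batch, no doublets, each batch alone and, added after seeing the data, 1 unnamed cluster counted as vascular.

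Hox genes were named with values where a class held at least 10 UMIs in each batch, and of the other lists the 2 genes with the largest differences in each direction; some results of these lists are not reported here. The members, gene lists and tests were chosen with earlier results of these data known.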

Additional observations from a re-analysis of the deposited data

Results flagged for a closer look

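Hox UMIs were found in cells that entered no comparison. The 1940 cells of Batch 2 with over 10% mitochondrial UMIs held 812 Hox UMIs, 1.61 per 10000 UMIs (95% Poisson interval 1.51 to 1.73), of which 337 were of Hoxa5 and 13 of cluster D. At least 1 Hox UMI was found in 488 of them. Cells of unnamed clusters held 2.94 Hox UMIs per 10000 in Batch 1 (95 UMIs, 94 cells) and 3.22 in Batch 2 (332 UMIs, 225 cells). These values were above those of epithelial and immune cells, and the cell types behind them were not tested. Groups of 2 samples allow no search for an outlying sample.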

How the results depend on the processing

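No Hox gene called in a comparison turned its direction there under the alternatives, and the Hox calls of mesenchymal against epithelial cells and of Hoxa7 and Hoxb2 between mesenchymal and vascular cells passed in all of them that tested the gene. For genes that passed the filter on low counts only through the class where they were high (Hoxb6, Hoxd3, Hoxd8, Hoxd9), this is no sign of stability. Nor is it for Hoxa7, which passed only through mesenchymal and lymphatic sums. The same holds for Hoxa2, Hoxa3 and Hoxb2 against epithelial and immune cells, since they passed only through mesenchymal and vascular sums. Hoxa3, not called between mesenchymal and vascular cells, differed by 0.86 in Batch 1 and -0.47 in Batch 2 alone. Each called Hox gene also kept its direction without replicate 1 and without replicate 2, in counts of 8 (mesenchymal against epithelial and against immune), 7 and 5 (vascular against epithelial and immune), 4, 5 and 1. Of the main results under an alternative, 197 kept their side, 12 were weaker, 1 was stronger and 23 values moved. Without the replicate block, calls among all genes fell from 3869 to 2566 (mesenchymal against epithelial), 3080 to 2052 (mesenchymal against vascular), 1090 to 495 (lymphatic), 1192 to 632 (fibroblast), 801 to 423 (pericyte) and 657 to 249 (myofibroblast or smooth muscle), and at a 5% mitochondrial limit to 450 in pericytes and 422 in myofibroblasts or smooth muscle. With no gene filter, 37 Hox genes were tested and 13 were called between mesenchymal and epithelial cells, in place of 11 and 8. Lymphatic Hox calls fell from 5 to 3 under DESeq2 and to 3 at the 5% limit, where Hoxd3 and Hoxd9 were not tested, and the 1 fibroblast call to 0 without the block and 0 under DESeq2. Calls lost for single genes were Hoxa3 at the 5% limit against immune cells (adjusted p = 0.0667 mesenchymal, 0.0761 vascular; lowest 0.00079 and 0.00172 over the alternatives), Hoxb6 under DESeq2 against immune cells (0.0548, lowest 0.000593), and Hoxb4 in lymphatic cells without the block (0.0545), under DESeq2 (0.119) and with relative log expression scaling (0.0540). Calls gained were Hoxb2 in vascular against immune cells at the 5% limit (0.0398) and without doublets (0.0370), and Hoxb5 in lymphatic cells without the gene filter (0.0327). With cluster 28, the unnamed cluster led by Fbln2, counted as vascular, 4 and 5 Hox genes were called between mesenchymal and vascular and between lymphatic and vascular cells, as many as without it. The cause was not tested for these changes.

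The split of all genes into higher and lower turned in lymphatic cells, from 389 and 701 to 454 and 458 with relative log expression scaling and 602 and 381 with DESeq2. It moved in fibroblasts from 761 and 431 to 553 and 537 with DESeq2 and 1123 and 332 without a filter, and it turned without a filter in pericytes, from 470 and 331 to 554 and 240 with DESeq2 and 404 and 589 without a filter. Shares of cells fell when cells were thinned, to 39.1% and 33.4% (mesenchymal), 37.6% and 34.0% (vascular), 26.9% (lymphatic, Batch 2), 5.33% and 0.866% (epithelial) and 2.52% (immune, Batch 2). Cells with at least 2 Hox UMIs made up 17.1% and 18.3%, 21.0% and 29.1%, 28.6% and 32.1%, 3.40% and 0.553%, and 1.81% and 1.04% of mesenchymal, vascular, lymphatic, epithelial and immune cells. At the 5% limit the Batch 2 shares were 5.48% (epithelial) and 9.47% (immune), with an immune level of 0.508 per 10000. With the study's listed labels the immune level of Batch 1 was 0.449. Without doublets the 10 mesenchymal genes stood at 0.535% of the mesenchymal level in epithelial cells of Batch 2. Depth limits the lymphatic class most, whose 5 called genes rest on 1 to 9 UMIs a batch.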

Other observations

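A cluster that stayed unnamed had Hox levels above the mean of the vascular class in both batches. It was led by Fbln2, Cpe, Fgl2 and Vwf, held 17 and 51 cells, and had Hoxa5 at 3.80 and 4.21 UMIs per 10000 and all Hox genes together at 6.03 and 5.95, beside 4.99 and 4.48 in all vascular cells. The cluster was singled out after its values had been seen.

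Erythroid cells (62 and 38 cells) held 52 and 30 UMIs of all Hox genes together, or 2.63 (1.96 to 3.45) and 2.26 (1.52 to 3.22) per 10000, above epithelial and immune cells. Hoxa5 gave 16 and 9 of these UMIs and Hoxb4 10 and 3. The 10 mesenchymal ratio genes, the set compared above in epithelial and immune cells, stood at 54.5 and 21.2 per 10000 in erythroid cells, beside 222.0 and 143.0 in mesenchymal cells. Their part in the erythroid Hox level was not tested.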
